A study of Mus musculus with 212 samples.

Results

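The matrix metalloproteases (Mmp), the ADAMTS proteases (Adamts) and the tissue inhibitors of metalloproteases (Timp) were described in cultured mouse skin fibroblasts that were wild type (WT) or lacked the clock gene Bmal1 (Bmal1-/-, labelled Bmal1KO). Members were taken by symbol: of 47631 genes in the expression table, 46 carried an Mmp symbol (23 genes), an Adamts symbol (19 genes) or a Timp symbol (4 genes). At a mean of 0.5 FPKM or more in any of 10 time courses, 34 were kept, of which 17 were Mmp, 14 Adamts and 3 Timp genes. FPKM is the number of fragments scaled to transcript length and library size. The 12 members below that level were Adamts3, Adamts8, Adamts13, Adamts19, Adamts20, Mmp1a, Mmp7, Mmp20, Mmp21, Mmp24, Mmp25 and Timp4. Nearest the limit, the highest course means were 0.230 FPKM for Adamts3, 0.393 FPKM for Mmp7 and 0.457 FPKM for Timp4 below it, and 0.695 FPKM for Adamts17, 1.15 FPKM for Mmp17 and 1.5 FPKM for Adamts18 above it. The limit could be met in 1 genotype alone, as Mmp1b met it only in WT courses. For such a gene the limit itself favours a genotype difference.

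The study followed gene expression over time in confluent C57BL/6 cultures of both genotypes, all of which received 100 nM dexamethasone for 15 min, a glucocorticoid pulse that sets the cells' clocks to a common phase, and were first harvested 48 h later. For each genotype there was a course labelled AM and a course labelled PM, with 17 libraries each at CT0 to CT48 every 3 h, and a course at each of 27, 32 and 37 °C, with 24 libraries each at CT0 to CT46 every 2 h. What AM and PM stand for is not stated in the labels. Each time point was 1 library from 3 wells, and the number of cell preparations per genotype was not given in the labels, so that every p-value here reflects how much single libraries scattered within their course, which may be technical.

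Metalloproteases cut collagens, proteoglycans and other components of the extracellular matrix. They are made as inactive precursors, many are opened by other proteases, and TIMPs block the active site of the mature enzymes. Fibroblasts are a main source of these enzymes in skin, where stromelysins and collagenases are known from wound repair and ADAMTS proteases from procollagen maturation and proteoglycan turnover.

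Of the 212 libraries, the libraries labelled CT14 at 27 °C were left out, which leaves 210 and 23 per 27 °C course. Among 19 members whose ranges did not overlap between genotypes at 27 °C, the library labelled WT lay within the Bmal1KO range for 18 and the library labelled Bmal1KO within the WT range for 17, and neither lay within its labelled course for any. Mmp3, for example, was 26.8 FPKM in the library labelled WT and 169 FPKM in the library labelled Bmal1KO. The estimated depth was 9.92 to 32.36 M reads (median 23.6 M), and the WT AM CT36 library was the shallowest. Transcripts of Bmal1 itself (Arntl) averaged 7.29 FPKM in the WT AM course and 6.56 FPKM in the Bmal1KO AM course, so they do not check the genotype labels. All 11 fibroblast markers were at 0.5 FPKM or more in every course. At 32 °C a single gene, Gm26377, took 18.8 to 34.2% of the summed FPKM of a library, against at most 2.51% elsewhere. As FPKM is scaled to transcript length, this is not a share of reads. Whether it bears on levels set at 32 °C against another temperature was not tested. The median of all genes was 0.09 higher at 32 than at 37 °C in each genotype, in log2(FPKM + 1). In whole cultures, fewer cells of a type and less RNA per cell cannot be told apart.

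Mmp2, gelatinase A, had the highest mean FPKM of the members, a level per transcript length, in each of the 10 courses: it averaged 1615 FPKM in WT AM and 1571 FPKM in Bmal1KO AM, and its lowest course mean was 1132 FPKM. Timp2, which takes part in the activation of Mmp2 at the cell surface, averaged 526 to 942 FPKM. Mmp14, the membrane-anchored activator of Mmp2, averaged 373 to 516 FPKM in the WT courses and 741 to 939 FPKM in the Bmal1KO courses. Mmp3 (stromelysin-1) averaged 218 to 1061 FPKM in the WT courses and 8.68 to 26.1 FPKM in the Bmal1KO courses. The remaining members with a course mean over 100 FPKM were Mmp11, Mmp23, Timp1, Timp3 and Adamts2.

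**Figure D1:**
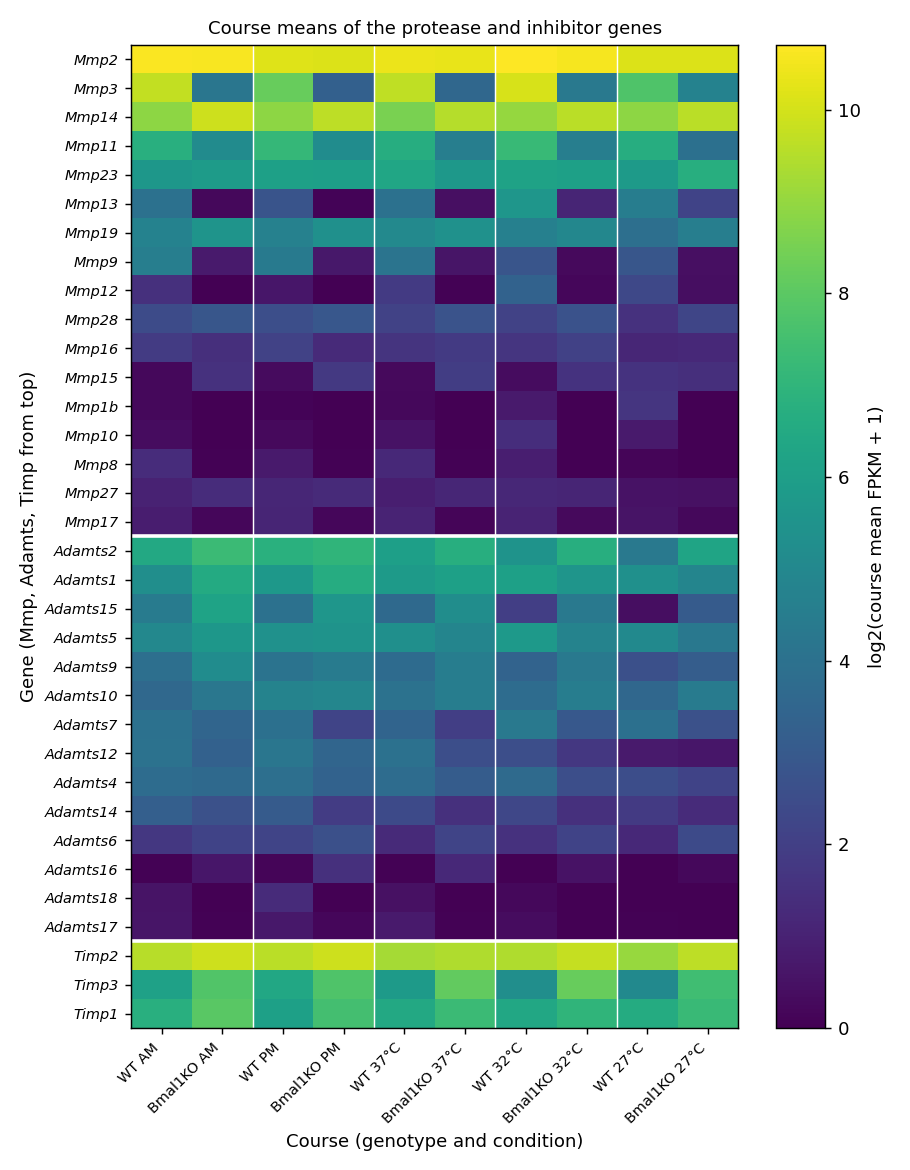
Heat map of course means, log2(mean FPKM + 1), for the 34 members (rows; Mmp, Adamts and Timp genes from top to bottom, each ordered by their highest course mean) in the 10 courses (columns). Mmp2 and Timp2 were high in every course, while Mmp3, Mmp13, Mmp9 and Mmp12 were darker in each Bmal1KO column than in the neighbouring WT column.

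The table held 10 members that form a cluster on mouse chromosome 9 (GRCm38), in the order Mmp13 (7272514 to 7283331), Mmp12, Mmp1b, Mmp3 (7445822 to 7455975), Mmp1a, Mmp10, Mmp8, Mmp27, Mmp20 and Mmp7 (7692090 to 7699585). The promoters of the 7 that were expressed are shown because 4 of them (Mmp3, Mmp8, Mmp12 and Mmp13) are among the 7 members lower in Bmal1KO in AM and PM, described below. For Mmp8 and Mmp12 the 0.5 FPKM limit favours that call, as their highest course means were in WT. Each line gives the 150 bases before the transcription start in RefSeq, build GRCm38.p6, 5′ to 3′ on the strand of the gene. Capitals mark the AP-1 site TGANTCA, the element bound by Fos and Jun dimers.
Mmp13, chr9:7272364-7272513, plus strand: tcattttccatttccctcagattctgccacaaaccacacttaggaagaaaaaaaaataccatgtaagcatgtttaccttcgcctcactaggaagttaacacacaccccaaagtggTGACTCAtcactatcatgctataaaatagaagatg
Mmp12, chr9:7347224-7347373, plus strand: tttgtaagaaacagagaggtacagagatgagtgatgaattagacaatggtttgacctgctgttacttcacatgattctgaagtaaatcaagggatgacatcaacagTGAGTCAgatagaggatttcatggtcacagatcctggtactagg
Mmp1b, chr9:7388027-7388176, minus strand: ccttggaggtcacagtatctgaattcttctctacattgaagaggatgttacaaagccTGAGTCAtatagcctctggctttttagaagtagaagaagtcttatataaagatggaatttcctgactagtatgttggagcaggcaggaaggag
Mmp3, chr9:7445672-7445821, plus strand: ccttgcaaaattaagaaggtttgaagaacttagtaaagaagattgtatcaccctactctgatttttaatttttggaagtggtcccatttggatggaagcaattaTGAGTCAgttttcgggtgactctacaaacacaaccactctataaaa
Mmp10, chr9:7502192-7502341, plus strand: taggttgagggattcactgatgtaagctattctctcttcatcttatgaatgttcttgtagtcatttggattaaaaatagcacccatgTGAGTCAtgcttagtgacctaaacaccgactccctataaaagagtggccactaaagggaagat
Mmp8, chr9:7558279-7558428, plus strand: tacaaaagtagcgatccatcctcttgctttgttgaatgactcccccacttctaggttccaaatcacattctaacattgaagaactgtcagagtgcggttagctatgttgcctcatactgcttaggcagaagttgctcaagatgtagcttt
Mmp27, chr9:7571246-7571395, plus strand: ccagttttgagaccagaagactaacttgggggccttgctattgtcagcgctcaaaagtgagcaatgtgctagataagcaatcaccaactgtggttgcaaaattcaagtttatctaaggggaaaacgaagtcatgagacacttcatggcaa

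The AP-1 site, searched on both strands within 250 bases before the start, was found in 8 of the 10 cluster genes and in 8 of the 32 members with a promoter in the table, so that all 8 lay in the cluster. Of all 27025 genes with a promoter in the table, 7.82% held it. The cluster genes without the site were Mmp8 and Mmp27, and Mmp12 held it at 1 of its 2 annotated starts. The line printed for Mmp12 is the start with the site, which lies inside the gene. The other start, with its 150 bases at chr9:7344247-7344396, is not printed and had no site. In Mmp3 the site lay 46 to 40 bases before the start, in Mmp13 35 to 29 bases and in Mmp10 63 to 57 bases. CACGTG, the E-box that Bmal1 with Clock is known to bind, was present in 2 of 32 members (Adamts17 and a second start of Mmp7), against 6.86% of all genes. These matches are descriptions of letters and not of binding, and the 14 members without a promoter entry were not searched.

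In the AM and PM courses, Mmp3, Mmp13, Mmp9, Mmp12, Mmp8, Mmp11 and Adamts7 were lower in Bmal1KO, and Timp3, Timp1, Adamts15, Adamts1 and Mmp15 were higher. A level was called different in limma where the adjusted p was below 0.05, log2(FPKM + 1) differed by 1 or more (2-fold) and the sign was the same in each course. By this rule 5 of 34 members were higher and 7 were lower in the mean of AM and PM, where 5.8% of all 16762 genes tested were higher and 6.37% were lower. The median difference of the members was 0.03, and that of all genes was -0.01.

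Of the 7 genes of the chromosome 9 cluster that were tested, Mmp3, Mmp13, Mmp12 and Mmp8 were lower in Bmal1KO in AM and PM. Mmp3 lay between 582 and 1101 FPKM in WT AM (median 853) and between 12.6 and 23 FPKM in Bmal1KO AM (median 16.5). In PM it lay between 251 and 362 FPKM in WT and between 7.38 and 10.7 FPKM in Bmal1KO. Neither pair of ranges overlapped, and the genotype difference on the log2(FPKM + 1) scale was -5.22 ± 0.04 (SE, adjusted p = 4.95e-69 in limma). For Mmp13, collagenase-3, the WT AM libraries lay between 11.03 and 19.4 FPKM (median 15.2) and the Bmal1KO AM libraries between 0 and 0.431 FPKM (median 0.138), again without overlap, and the difference was -3.19 ± 0.04. Mmp12, the macrophage elastase, had course means of 1.77 FPKM in WT AM and 0.0252 FPKM in Bmal1KO AM, and 0.588 and 0.00944 FPKM in PM, with a difference of -1.01 ± 0.05. Its ranges were apart in AM (0.955 to 2.28 against 0 to 0.359 FPKM) and overlapped in PM. Mmp12 and Mmp8 had their highest course means in WT, at 9.31 FPKM at 32 °C and 1.58 FPKM in AM. For both genes the 0.5 FPKM limit thus favours a lower value in Bmal1KO.

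Mmp8, the neutrophil collagenase, averaged 1.58 FPKM in WT AM and 0.0429 FPKM in Bmal1KO AM, a difference over both courses of -1.0 ± 0.03 that lay at the 2-fold limit. Without the WT AM CT36 library it was -0.992, and with the replicate block -0.999, and either ended the call. Mmp10, Mmp1b and Mmp27 did not pass on the log2(FPKM + 1) scale. Mmp10 (stromelysin-2) averaged 0.273 FPKM in WT AM and 0.00136 FPKM in Bmal1KO AM, and Mmp1b, an interstitial collagenase gene, averaged 0.171 FPKM in WT AM and was listed at 0 in all 17 Bmal1KO AM libraries. With a pseudocount of 0.1 FPKM, Mmp10 was called in AM (-1.83), in PM (-1.38) and over both (-1.61), and Mmp1b in AM (-1.31). Mmp27 was the exception in level: it averaged 1.03 FPKM in WT AM and 1.57 FPKM in Bmal1KO AM, and its difference of 0.25 ± 0.04 was under 2-fold.

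Outside the cluster, Mmp9 (gelatinase B) lay between 17.8 and 32.6 FPKM in WT AM and between 0.188 and 1.73 FPKM in Bmal1KO AM. The libraries of the genotypes were apart in both courses, and the difference over AM and PM was -3.76 ± 0.05. Mmp11 (stromelysin-3), whose substrates include serpins, averaged 108 FPKM in WT AM and 35.1 FPKM in Bmal1KO AM, with a difference of -1.74 ± 0.05. The other gelatinase, Mmp2, gave -0.03 ± 0.02 with an adjusted p of 0.252 in limma, and its ranges overlapped in AM (1426 to 1839 FPKM in WT, 1304 to 1795 FPKM in Bmal1KO).

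Among membrane-bound enzymes, Mmp15 averaged 0.179 FPKM in WT AM and 1.87 FPKM in Bmal1KO AM, and 0.244 and 2.45 FPKM in PM, with a difference of 1.37 ± 0.03. Mmp14 lay between 416 and 573 FPKM in WT AM and between 785 and 1033 FPKM in Bmal1KO AM. These ranges did not overlap, but the difference of 0.88 ± 0.02 was under 2-fold. Mmp16 and Mmp17 averaged 2.63 and 0.793 FPKM in WT AM and 1.72 and 0.147 FPKM in Bmal1KO AM, and neither passed the 2-fold limit, although Mmp17 was called with a pseudocount of 0.1 FPKM (-2.06).

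Of the 3 TIMPs tested, Timp1 and Timp3 were higher in Bmal1KO. Timp3, the matrix-bound inhibitor that also blocks ADAM and ADAMTS proteases, lay between 54.2 and 79.3 FPKM in WT AM (median 69.7) and between 171 and 278 FPKM in Bmal1KO AM (median 221). Every Bmal1KO library was above every WT library, in PM as well, and the difference was 1.5 ± 0.03. Timp1, induced in many cells by inflammatory cytokines and growth factors, averaged 108 FPKM in WT AM and 249.4 FPKM in Bmal1KO AM, with a difference of 1.33 ± 0.02. Timp2 averaged 748 and 942 FPKM in AM, and its difference of 0.30 ± 0.02 was under 2-fold. The summed FPKM of the 3 TIMPs and Timp4 averaged 925 in WT AM and 1413 in Bmal1KO AM.

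Adamts15, a proteoglycan-cleaving enzyme, was the ADAMTS gene with the largest difference of the 5 members that were higher: it lay between 15.7 and 27.4 FPKM in WT AM and between 54.4 and 78.9 FPKM in Bmal1KO AM, and the difference over AM and PM was 1.72 ± 0.03. Adamts1, also a proteoglycan-cleaving enzyme, lay between 32.1 and 49.7 FPKM in WT AM and between 75.4 and 109 FPKM in Bmal1KO AM, with a difference of 1.09 ± 0.03. Adamts7, which cleaves cartilage oligomeric matrix protein, was the only ADAMTS gene called lower, at -1.15 ± 0.03, and its ranges overlapped in AM (12.6 to 17.1 FPKM in WT, 6.25 to 14.7 FPKM in Bmal1KO) and not in PM. The gene overlaps Tbc1d2b on the opposite strand, which reached a course mean of 128 FPKM, and whether the counting used strand is unknown here.

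The remaining members did not pass the call over AM and PM on the log2(FPKM + 1) scale, which understates differences of genes below about 1 FPKM. Mmp19, an enzyme of basement membrane proteins, averaged 26.1 FPKM in WT AM and 44.96 FPKM in Bmal1KO AM without overlap of the libraries, a difference over both courses of 0.72 ± 0.02, and Mmp28 (epilysin) averaged 4.48 and 6.28 FPKM. Adamts9 averaged 13.97 and 36.03 FPKM in AM and was called in AM alone (1.31, against 0.39 in PM). Adamts16 averaged 0.0379 FPKM in WT and 0.552 FPKM in Bmal1KO in AM, and 0.0963 and 1.82 FPKM in PM (1.35). Adamts18 averaged 0.459 and 0.0012 FPKM in AM, and 1.5 and 0.00342 FPKM in PM (-1.27). The ranges of both genes were apart in both courses, and with a pseudocount of 0.1 FPKM in place of 1 their differences over AM and PM were called, at 2.76 and -3.06. Adamts14, an enzyme of procollagen maturation, averaged 7.42 and 2.72 FPKM in PM (-1.18), and its difference over both courses was -1.02 and called with that pseudocount. Adamts4 and Adamts5, both aggrecanases, gave -0.31 and 0.38, and Adamts6, Adamts10 and Adamts12 gave 0.40, 0.38 and -0.71, under 2-fold on that scale. Adamts17 averaged 0.537 FPKM in WT AM and 0.0399 FPKM in Bmal1KO AM without overlap, and 0.632 and 0.125 FPKM in PM with overlap. Its difference was -0.51 with 1 FPKM added and -1.87, and called, with 0.1 FPKM added. Adamts17 and Adamts18 had their highest course means in WT and Adamts16 in Bmal1KO, so that the 0.5 FPKM limit favours their genotype differences.

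By single course, 6 members were higher and 6 lower in Bmal1KO in AM (5.66% and 6.53% of all genes), and 5 and 7 in PM (6.17% and 7.04%). At 37 °C 4 were higher and 8 lower (5.2% and 6.46%), at 32 °C 4 and 8 (5.75% and 6.26%) and at 27 °C 4 and 7 (5.25% and 5.88%). Mmp3, Mmp9, Mmp11 and Mmp13 were lower and Adamts15 and Timp3 higher in each of the 5 comparisons. Mmp10 was called at 32 °C (-1.38), where it lay between 0.621 and 3.10 FPKM in WT and at 0.0646 FPKM or less in Bmal1KO, and Mmp1b at 27 °C (-1.59). Each of these genes had its highest course mean in the WT course of its call, which met the 0.5 FPKM limit. The limit thus favoured a lower value in Bmal1KO here.

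**Figure D2:**
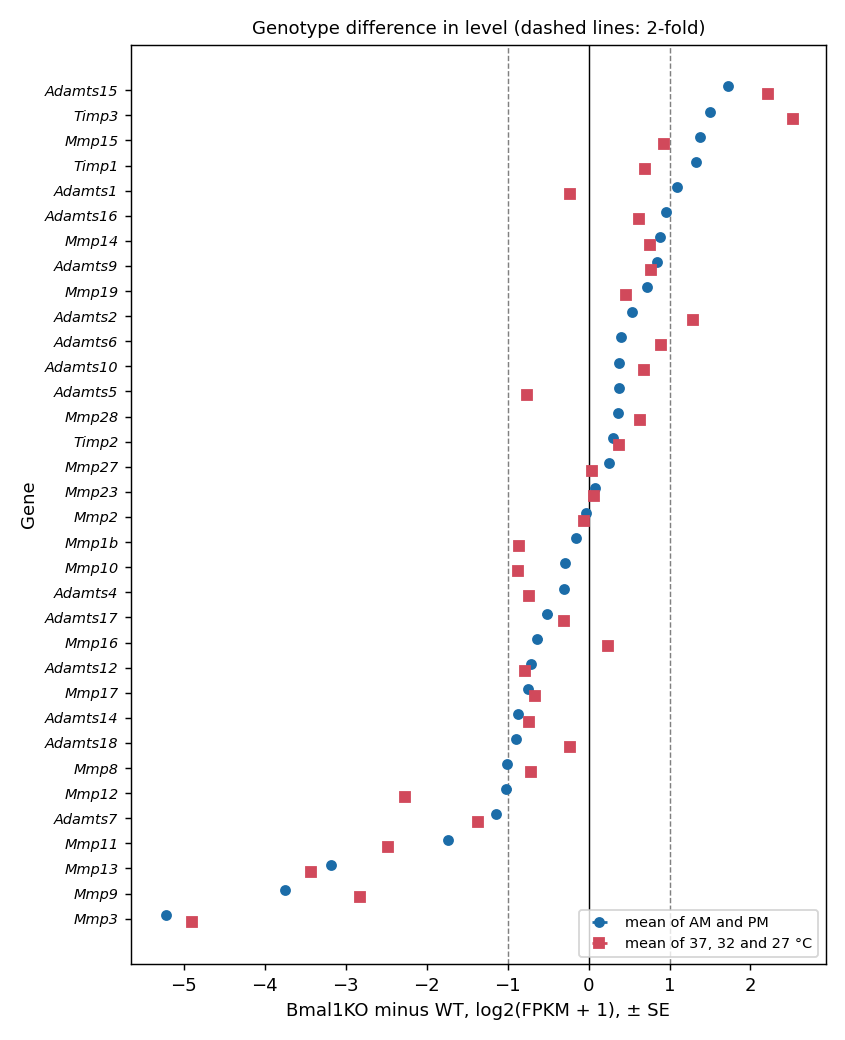
Genotype difference in log2(FPKM + 1) of the 34 members (rows, ordered by the AM and PM value), Bmal1KO minus WT, for the mean of AM and PM (circles) and of 37, 32 and 27 °C (squares). Bars are SE and are smaller than most symbols, and the dashed lines mark 2-fold. Mmp3 lies farthest to the left, at -5.22 and -4.90, and Adamts15 and Timp3 farthest to the right.

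Across 37, 32 and 27 °C, in courses other than AM and PM, 3 members were higher and 6 lower in Bmal1KO, where 4.83% of all genes were higher and 5.69% lower. Mmp3, Mmp13, Mmp9, Mmp11, Mmp12 and Adamts7 were lower and Timp3, Adamts15 and Adamts2 were higher. At 37 °C, Mmp3 lay between 549 and 969 FPKM in WT (median 832) and between 8.51 and 14.03 FPKM in Bmal1KO (median 10.6). The mean difference over the temperatures was -4.90 ± 0.03. Mmp13 gave -3.42 ± 0.03, Mmp9 -2.82 ± 0.04, Mmp11 -2.48 ± 0.04, Mmp12 -2.26 ± 0.05 and Adamts7 -1.37 ± 0.02. The limit on FPKM favours the Mmp12 value here too.

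Timp3 lay between 47.1 and 67.5 FPKM in WT at 37 °C (median 53.5) and between 220 and 377 FPKM in Bmal1KO (median 274). The genotypes did not overlap at any temperature, and the mean difference of 2.52 ± 0.02 was the largest rise among the members. Adamts15 gave 2.21 ± 0.02. Adamts2, the procollagen N-proteinase, was called here (1.29 ± 0.02) and gave 0.54 ± 0.02 in AM and PM. Timp1, Mmp15 and Adamts1, called higher in AM and PM, gave 0.69 ± 0.02, 0.93 ± 0.02 and -0.23 ± 0.02 at the temperatures. Whether these values differ between the sets of courses was not tested.

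Ranges of single libraries were compared as well. In AM, 13 members had every Bmal1KO library above every WT library and 11 had every one below, against 14.9% of all genes in each direction. At 37 °C these were 10 and 14 members, against 12% and 14.2% of all genes. The members with non-overlapping ranges were 9 above and 10 below in PM (15.0% and 16.3% of all genes), 10 and 13 at 32 °C (15.2% and 16.9%) and 10 and 9 at 27 °C (11.9% and 13%).

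The makeup of the Mmp transcripts differed between genotypes. Mmp3 made up 26.6% of the summed Mmp FPKM in WT AM (range 18.8 to 33.8%) and 0.648% in Bmal1KO AM (0.552 to 0.792%). Mmp14 made up 15.0% (13.3 to 17.8%) and 35.1% (33.4 to 37.5%). Over all courses, Mmp3 was 10.6 to 29.4% of the Mmp sum in WT and 0.414 to 1.28% in Bmal1KO, with no overlap at any temperature. The Mmp sum itself averaged 3168 FPKM in WT AM and 2678 FPKM in Bmal1KO AM, and 2046 and 2084 FPKM at 27 °C.

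Genes on either side of the cluster were compared, 7 in all. Pdgfd, upstream, gave -0.98 ± 0.03 in AM and PM and -1.36 ± 0.02 over the temperatures, and Dcun1d5 gave -0.67 ± 0.03 and -0.74 ± 0.02. Downstream, Tmem123 gave -0.43 ± 0.02 and 0.01 ± 0.01, and Birc2 gave 0.20 ± 0.03 and 0.43 ± 0.02. Pdgfd over the temperatures was the only one of the 14 values of these genes to pass the call.

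Several members differed in level between temperatures in both genotypes. Each temperature was 1 course per genotype, so that temperature and any other difference between courses cannot be told apart. The comparisons of 27 and of 32 °C with 37 °C share the 37 °C courses, so their values are given side by side. The median of all genes was 0.13 higher at 27 °C than at 37 °C in each genotype on the log2(FPKM + 1) scale, and the members' values are to be read against that shift. In WT at 27 °C, 2 of 34 members were higher and 9 were lower than at 37 °C, where 6.81% of all genes were higher and 4.34% lower. With median-of-ratios scaling, which removes that shift, the counts over all genes turned from 1142 higher and 727 lower to 653 and 1063. In Bmal1KO, 2 members were higher and 4 lower, where 6.2% of all genes were higher and 3.35% lower. The counts over all genes turned from 1040 and 561 to 605 and 842 under the same scaling, and the members' from 2 and 4 to 1 and 7.

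Of the 14 ADAMTS genes tested, 5 were lower at 27 than at 37 °C in WT and 4 in Bmal1KO, and 0 were higher. Adamts15 averaged 11.8 FPKM at 37 °C, 2.96 FPKM at 32 °C and 0.304 FPKM at 27 °C in WT, and the 27 °C libraries (0.139 to 0.486 FPKM) did not overlap the 37 °C libraries (7.86 to 17.3 FPKM). The difference between 27 and 37 °C was -3.27 ± 0.03 in WT and -2.17 ± 0.03 in Bmal1KO. Adamts12, a proteoglycan and cartilage matrix protease, averaged 14.7, 4.92 and 0.723 FPKM at 37, 32 and 27 °C in WT, a difference of -3.17 ± 0.04, and gave -1.93 ± 0.04 in Bmal1KO. Adamts9 gave -1.14 in WT and -1.35 in Bmal1KO. Adamts2 and Adamts4 were called lower in WT (-1.75 and -1.26), and Adamts1 in Bmal1KO (-1.19).

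Mmp3 went opposite ways in the genotypes. In WT it averaged 819 FPKM at 37 °C, 1061 FPKM at 32 °C and 218 FPKM at 27 °C, and in Bmal1KO 10.9, 19.3 and 26.1 FPKM. No 27 °C WT library (140 to 336 FPKM) reached the lowest 37 °C WT library, and no 27 °C Bmal1KO library (20.8 to 31.1 FPKM) was as low as the highest 37 °C Bmal1KO library. The difference from 37 to 27 °C was -1.93 ± 0.05 in WT and 1.20 ± 0.05 in Bmal1KO, and the test of the difference between genotypes gave 3.13 ± 0.08 (adjusted p = 5.52e-70 in limma). With median-of-ratios scaling the value in Bmal1KO was 0.98, which ended that call. The genotype difference at 27 °C, -2.98, was smaller than at 37 °C, -6.11.

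Mmp13 averaged 14.8 FPKM at 37 °C, 48.1 FPKM at 32 °C and 22.5 FPKM at 27 °C in WT, and 0.363, 1.13 and 3.502 FPKM in Bmal1KO. In WT it was called higher at 32 °C (1.79) and in Bmal1KO at 27 °C (1.71 ± 0.05). Mmp12 averaged 2.55, 9.31 and 4.07 FPKM in WT, and its 32 °C value was 1.57 above that at 37 °C. The tests of the difference between genotypes at 32 against 37 °C gave -1.45 for Mmp12 and -1.16 for Mmp13 on the log2(FPKM + 1) scale. As ratios of mean FPKM, Bmal1KO to WT, Mmp12 was at 0.0126 at 37 °C and 0.0133 at 32 °C (0.0321 and 0.124 FPKM in Bmal1KO), and Mmp13 at 0.0245 and 0.0234, so that both genes changed by a like factor in the genotypes. The test value of Mmp13 was -0.44 with a pseudocount of 0.1 FPKM and lost its call, while Mmp12 kept its call with that pseudocount.

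Mmp1b averaged 0.184 FPKM at 37 °C, 0.698 FPKM at 32 °C and 2.18 FPKM at 27 °C in WT, and at most 0.0147 FPKM in any Bmal1KO course. Its 27 °C WT libraries (0.841 to 3.49 FPKM) lay above all 37 °C WT libraries (0 to 0.575 FPKM), a difference of 1.38 ± 0.04. Mmp1b overlaps Mmp12 on the opposite strand, and 2.59% of its 101-base stretches occur in Mmp1a. Mmp15 averaged 0.191 FPKM at 37 °C and 1.93 FPKM at 27 °C in WT, and 2.89 and 1.75 FPKM in Bmal1KO, so that the genotypes were apart at 37 °C and overlapped at 27 °C. Its temperature difference was 1.27 ± 0.04 in WT and -0.53 ± 0.04 in Bmal1KO. Mmp23, a short metalloprotease with a toxin-like domain, averaged 79.1 and 56.6 FPKM in WT at 37 and 27 °C, and 51.9 and 104 FPKM in Bmal1KO, so that the Bmal1KO mean was below the WT mean at 37 °C and above it at 27 °C. The difference from 37 to 27 °C was -0.47 in WT and 0.98 in Bmal1KO, each under 2-fold.

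The test of the difference between genotypes at 27 against 37 °C called 7 members with a positive value and 2 with a negative one, where 2.37% of all genes were positive and 1.44% negative. The positive members were Mmp3 (3.13), Mmp23 (1.45), Adamts2 (1.28), Adamts12 (1.24), Mmp9 (1.10), Adamts15 (1.10) and Mmp8 (1.01), and the negative ones were Mmp15 (-1.80) and Mmp1b (-1.36). Mmp13 gave 0.99 and was not called, but was called at 2.23 with a pseudocount of 0.1 FPKM, at 1.10 with median-of-ratios scaling and at 1.20 with the CT14 libraries kept. Mmp9 averaged 16.3 FPKM at 37 °C and 6.28 FPKM at 27 °C in WT and 0.506 and 0.372 FPKM in Bmal1KO. Its value was 0.91, under the call, when the pseudocount was 0.1 FPKM. The value of Adamts15 was 0.88 with the CT14 libraries kept. Mmp8 in Bmal1KO was near 0 at both temperatures (0.0371 and 0.0164 FPKM). At 32 °C, 2 members were negative, where 0.591% of all genes were, and 0 were positive (0.674% of all genes).

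At 32 against 37 °C, 2 members were higher and 3 lower in WT (1.52% and 1.15% of all genes). The members called lower were Adamts15 (-1.67), Adamts12 (-1.39) and Mmp9 (-1.31). Over all genes the counts went from 255 higher and 192 lower to 194 and 267 with median-of-ratios scaling. Among the Bmal1KO libraries no member was called in limma, where 1.38% of all genes were higher and 0.799% lower, while 20 of 34 had an adjusted p under 0.05, as had 68.3% of all genes. With a pseudocount of 0.1 FPKM, 2 were called higher and 3 lower.

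**Figure D3:**
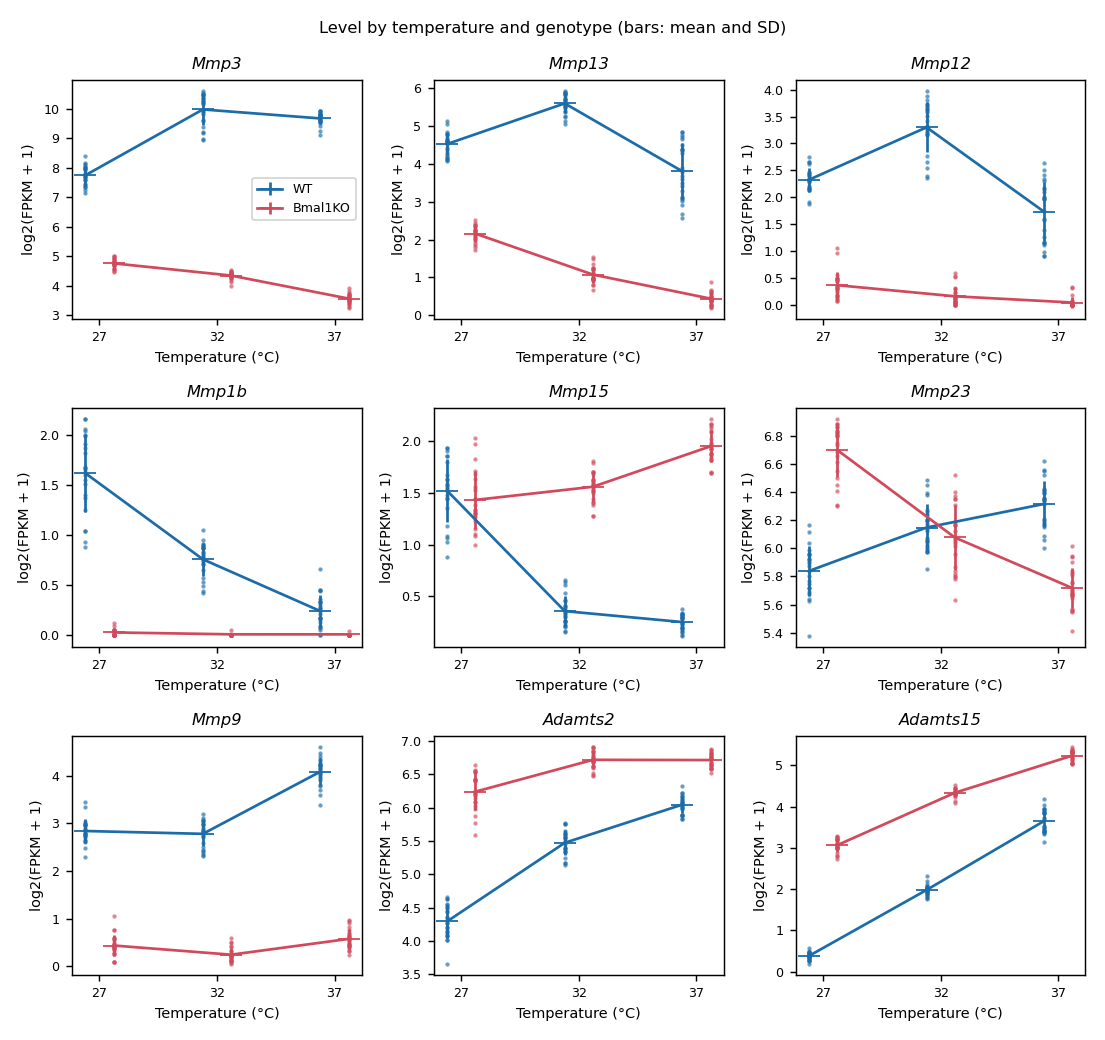
Log2(FPKM + 1) of 9 members against temperature in WT (blue) and Bmal1KO (red). Dots are single libraries, 23 or 24 per course, and bars are mean and SD. Mmp3 fell from 37 to 27 °C in WT and rose in Bmal1KO, Mmp15 was near its Bmal1KO level only at 27 °C in WT, and Adamts2 and Adamts15 were lowest at 27 °C in WT.

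PM against AM passed the 2-fold call for few members. In WT 30 of 34 had an adjusted p under 0.05 in limma, as had 60.2% of all genes. In Bmal1KO 19 had, as had 55.2% of all genes. In WT, Mmp3 averaged 841 FPKM in AM and 295 FPKM in PM, a difference of -1.5, and no PM library (251 to 362 FPKM) reached the lowest AM library (582 FPKM). Mmp13 averaged 14.9 and 5.80 FPKM (-1.23), and Adamts10, which binds fibrillin, 11.2 and 26.7 FPKM (1.22). By the call, 1 member was higher and 2 lower in WT (1.32% and 0.609% of all genes). Over all genes the counts went from 222 higher and 102 lower to 155 and 119 when libraries were scaled by median-of-ratios. In Bmal1KO only Adamts7 was called, at 10.2 and 3.65 FPKM (-1.26), where 0.501% of all genes were lower. Higher in PM were 0 members (0.412% of all genes). The Bmal1KO value of Mmp3 was -0.92, and median-of-ratios scaling took it to -1.01.

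Within courses, few members passed the call for a linear trend over the 48 h. A trend was called where the adjusted p was below 0.05 and the slope was 0.5 log2 units or more per 24 h. In WT at 37 °C, 3 members were called, where 1.01% of all genes were: Mmp13 fell by 1.23 log2 per 24 h, from 27.8 FPKM at CT0 to 4.94 FPKM at CT46, Mmp12 fell by 0.72 and Adamts1 by 0.53. In WT at 32 °C, Mmp3 rose by 0.78 log2 per 24 h and Adamts5, an aggrecan-cleaving enzyme, by 0.54 (2 members, where 1.43% of all genes were called). Mmp1b in WT at 27 °C (0.55, where 1.83% of all genes were called), Adamts5 in Bmal1KO at 37 °C (0.52, 0.501%) and Adamts18 in WT PM (0.52, 0.877%) were the remaining calls. Without the size limit, more members in these courses had an adjusted p under 0.05 in limma. They were 23 of 34 in WT at 37 °C and 23 in WT at 32 °C (22.6% and 25.3% of all genes). In WT at 27 °C they were 19, in WT PM 16 and in Bmal1KO at 37 °C 13 (30.9%, 14.7% and 30%). No member was called in WT AM (0.489% of all genes), Bmal1KO AM (0.227%), Bmal1KO PM (0.179%) or Bmal1KO at 32 °C (0.376%) and 27 °C (0.662%), and 15, 9, 5, 8 and 13 of 34 had an adjusted p under 0.05 there, as had 11%, 6.01%, 4.12%, 12.5% and 19.3% of all genes.

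Rhythm was tested as a 24 h cosine at an adjusted p under 0.05 in limma. Adamts10 was called in 4 of the 6 temperature courses: an amplitude of 0.27 log2 in Bmal1KO at 27 °C, 0.40 at 32 °C and 0.35 at 37 °C, and 0.25 in WT at 27 °C, with fitted peaks at CT4.9 to CT6.0. In Bmal1KO at 27 °C, 9 members were called (8.33% of all genes were): Mmp2, Mmp13, Mmp14, Mmp15, Adamts2, Adamts6, Adamts10, Timp2 and Timp3. Their fitted peaks lay between CT1.5 and CT6.0 for Timp3, Mmp13, Mmp15, Adamts6 and Adamts10, and between CT15.8 and CT16.9 for Timp2, Adamts2, Mmp2 and Mmp14. In WT at 37 °C, 4 members were called (4.07% of all genes), namely Adamts1, Adamts4, Adamts12 and Mmp13. The other courses had 2 calls in Bmal1KO at 37 °C (7.67% of all genes), 2 in WT at 27 °C (2.09%), 1 in Bmal1KO at 32 °C (1.9%), 1 in Bmal1KO PM (2.3%), 2 in WT PM (4.43%) and 0 in WT AM (2.99%), Bmal1KO AM (2.69%) and WT at 32 °C (0.227%). In those 3 courses 8, 5 and 5 members had an unadjusted p under 0.05 in limma, as had 19.3%, 15.7% and 7.34% of all genes.

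**Figure D4:**
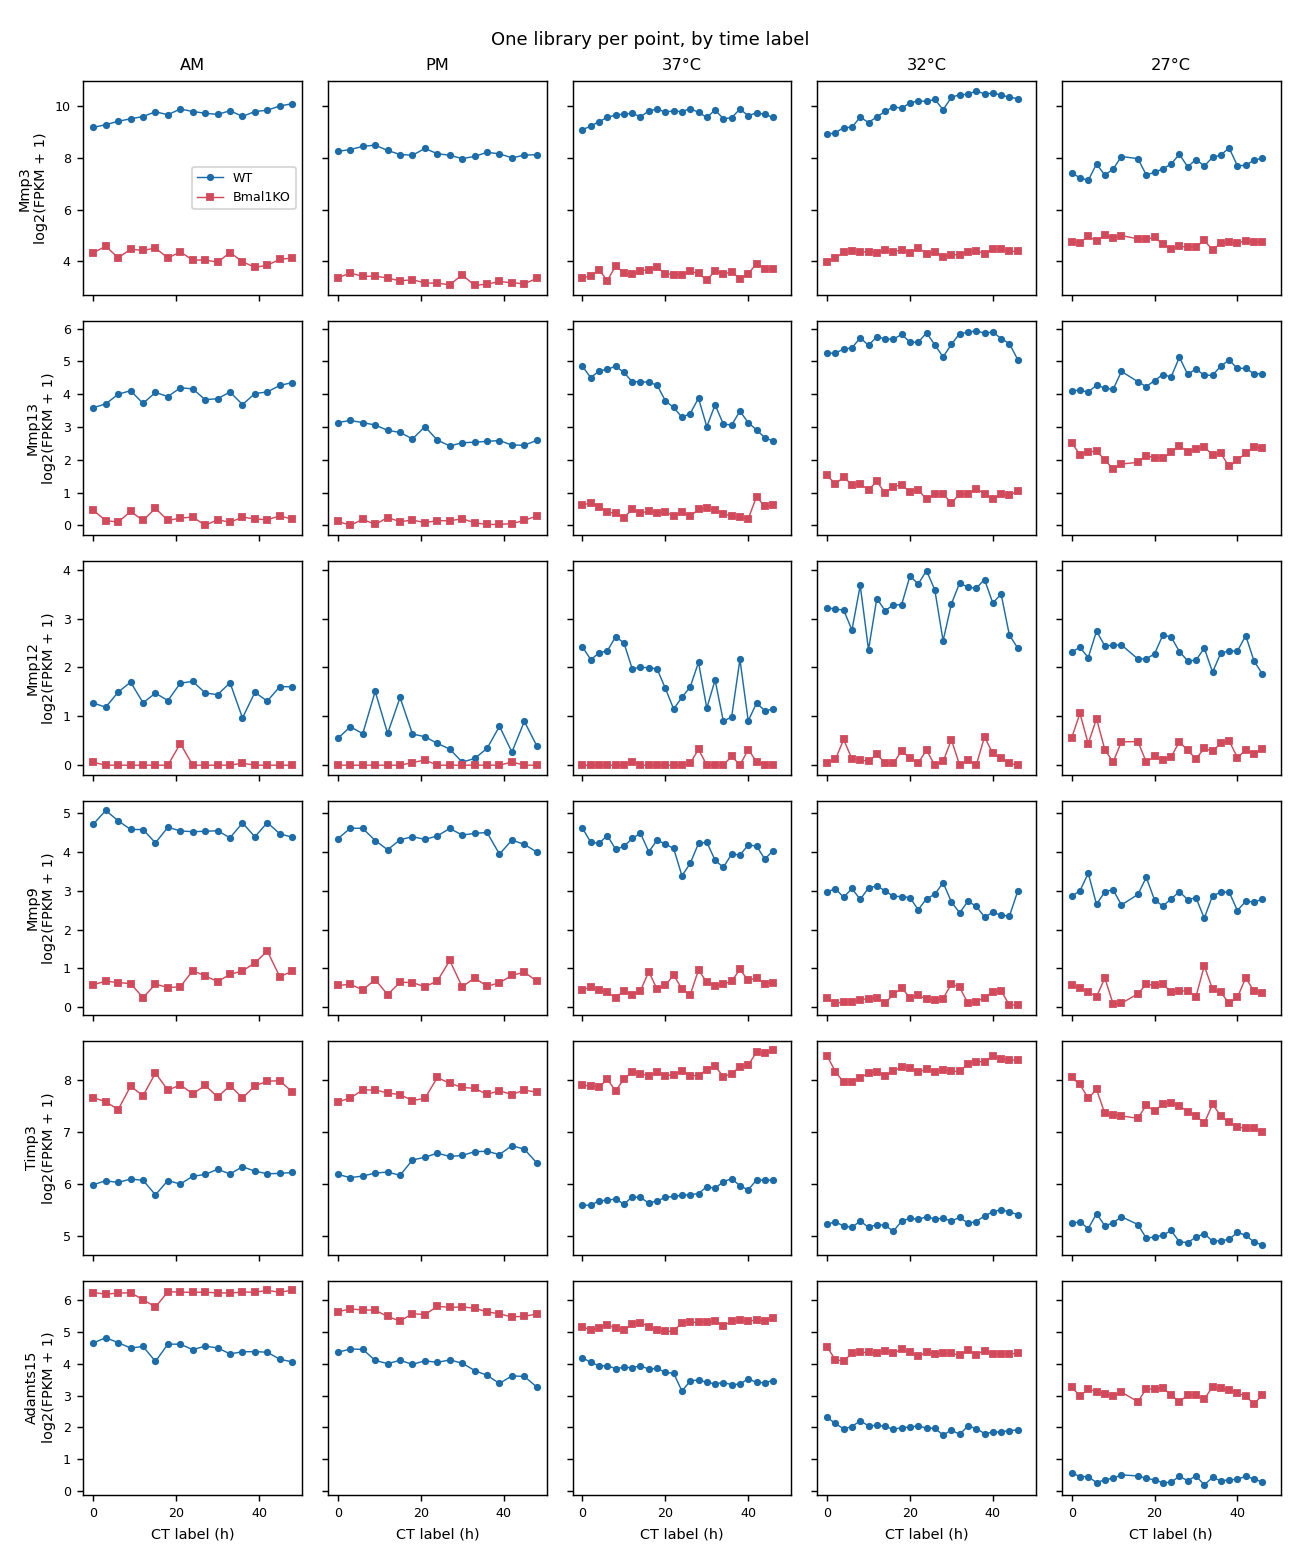
Log2(FPKM + 1) of 6 members by time label in the AM, PM, 37, 32 and 27 °C courses, 1 library per point, WT as blue circles and Bmal1KO as red squares. Mmp3, Mmp13 and Mmp9 were lower in every Bmal1KO library of a course and Timp3 and Adamts15 were higher, and the fall of Mmp13 over 48 h is seen in WT at 37 °C.

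Other protease inhibitors, activators, related proteases and matrix genes were taken as lists, and not all of them act on metalloproteases. Among other protease inhibitors, Serpine2, which inhibits serine proteases, was lower in Bmal1KO in AM and PM (-2.86) and over the temperatures (-3.21), and Cst3, an inhibitor of cysteine proteases, was lower over the temperatures (-1.57). The membrane-anchored metalloprotease inhibitor Reck was lower at 27 than at 37 °C by -2.35 in WT and -1.79 in Bmal1KO. Of 10 activators and clearance genes, the proprotein convertase Pcsk5 was higher in AM and PM (1.77), and no other was called there. The ADAMTS-like proteins had 2 of 6 higher in AM and PM (Adamtsl4 1.44, Adamtsl5 1.01), and of 9 ADAM sheddases 2 were lower (Adam33 -2.24, Adam8 -1.03). Of all genes, 5.8% were higher and 6.37% lower in AM and PM.

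Transcription factors that act at Mmp promoters were tested as a list of 14 AP-1, ETS and RUNX genes. In AM and PM, 5 were lower and 0 higher, where 6.37% of all genes were lower and 5.8% higher. Among the 5 were Etv4 (-2.20), Runx1 (-1.86), Etv5 (-1.56) and Runx2 (-1.52). The list median was -0.21 against -0.01 for all genes. Over the temperatures, Etv4 (-2.03), Runx1 (-1.24) and Runx2 (-1.22) were lower and Ets2 was higher (1.22), where 5.69% of all genes were lower and 4.83% higher. At 27 against 37 °C in Bmal1KO, Jun (-2.18), Fos (-1.20) and Junb (-1.03) were lower (3.35% of all genes), while Ets1 was higher (1.24, 6.2% of all genes). The list median there was -0.16 against 0.13 for all genes. In WT, Etv4 (1.49) and Ets1 (1.10) were higher and 0 were lower, where 6.81% of all genes were higher and 4.34% lower. The test of the difference between genotypes was negative for Junb (-1.70), Jun (-1.24) and Etv4 (-1.10), as for 1.44% of all genes. Of 14 matrix substrates, Eln (1.91) and Dcn (1.01) were higher in AM and PM (5.8% of all genes) and none was lower (6.37%). The list median there was -0.18 against -0.01 for all genes. Over the temperatures 0 substrates were called (4.83% of all genes were higher and 5.69% lower), and the list median was -0.31 against -0.01. The collagen cross-linking enzyme Loxl2, among 11 procollagen processing genes, was higher by 1.88 in AM and PM and by 2.45 over the temperatures. Of 12 inducing signals and receptors, Il1r1, the interleukin-1 receptor, was lower in AM and PM (-1.05), and Tgfb1 was higher over the temperatures (1.32).

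Mmp12 and Mmp8 are named for macrophages and neutrophils. Of 8 macrophage markers, 3 were at 0.5 FPKM or more in some course, Cd68, Csf1r and Lyz2, and Ptprc and Adgre1 did not exceed 0.00607 FPKM in any course mean. The summed level was 4.09 to 7.19 FPKM in the WT AM libraries and 1.62 to 3.65 in Bmal1KO AM, 6.43 to 10.0 and 1.17 to 3.10 at 37 °C, and 24.9 to 41.4 and 18.1 to 41.5 at 27 °C, where Cd68 was highest. Of 8 neutrophil and mast cell markers, 3 reached 0.5 FPKM in some course (S100a8, Cpa3 and Mcpt4), Mpo, Tpsb2 and S100a9 were at or near 0, and the sum was 0 to 2.08 FPKM per library. S100a8 averaged 0.595 FPKM in WT AM and 0.0145 FPKM in Bmal1KO AM, and 0.246 and 0.0301 FPKM at 37 °C. Cpa3 averaged 0.0903 FPKM in WT AM and 0.439 FPKM in Bmal1KO AM, and Mcpt4 0 and 0.584 FPKM. The median sum of the list was 0.602 FPKM in WT AM and 1.06 FPKM in Bmal1KO AM. Lyz2 averaged 3.96 and 0.874 FPKM in AM. The part of such cells in the levels of Mmp12 and Mmp8 was not tested. Of 7 keratinocyte markers, 1 was at 0.5 FPKM or more in each WT course and 2 in each Bmal1KO course. Krt5 and Krt1 were at or near 0, and the sum was 0.562 to 5.69 FPKM. Its median was 1.52 FPKM in WT and 4.62 FPKM in Bmal1KO at 27 °C, 1.02 and 2.71 at 32 °C, and 1.24 and 1.16 at 37 °C. Of the 2 tested, 1 was called higher in Bmal1KO over the temperatures (4.83% of all genes) and 0 in AM and PM (5.8%).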

How the data were processed

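Poly(A) RNA was sequenced from single reads with a stranded kit, per the labels' protocols. The authors deposited FPKM for 47631 genes, and the submitters' processing notes name TopHat, TopHat2 2.1.0, Cuffdiff and GRCm38. The sources used here do not give the annotation, the use of strand in counting or any scaling of libraries against each other. A gene name table gave symbols for 47217 gene IDs, and gene positions are those of GENCODE on GRCm38. Depth was worked out from steps in low FPKM values (1357 genes, of which 94.0% of values fell on whole reads, tolerance 0.15).

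Deposited FPKM were transformed to log2(FPKM + 1) and the 16762 genes that reached a mean of 0.5 FPKM in some course were fitted with limma 3.58.1 in R 4.3.3, with trend, in 1 fit of the AM and PM courses and 1 of the temperature courses. Each course had an intercept, a linear time term and a 24 h cosine and sine. P-values were adjusted by Benjamini-Hochberg over all genes, two-sided. The fit was tested on simulated data. CT labels are times and replicate numbers follow accession order only, so they pair no samples. Members, lists and call rules were chosen with earlier results of these data known. Named genes are all members at the limit and, of each other list, up to 4 called genes by size of difference. The alternatives were another pseudocount, other filters, median-of-ratios scaling, no intensity trend, the CT14 libraries kept, WT AM CT36 left out, a replicate block and no time terms. Some results on genes outside the 3 families are not reported here.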

Additional observations from a re-analysis of the deposited data

Results flagged for a closer look

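The change from 37 to 27 °C differed between genotypes by the test of the difference itself for 9 members, on the log2(FPKM + 1) scale: Mmp3 (3.13), Mmp23 (1.45), Adamts2 (1.28), Adamts12 (1.24), Mmp9 (1.10), Adamts15 (1.10) and Mmp8 (1.01) had a more positive change in Bmal1KO, and Mmp15 (-1.80) and Mmp1b (-1.36) a more negative one. Of these, Mmp9 was at 0.91 with a pseudocount of 0.1 FPKM and Adamts15 at 0.88 with the CT14 libraries kept, and each lost its call there. Mmp8 and Mmp1b were near 0 FPKM in Bmal1KO at both temperatures. The change from 37 to 32 °C differed for Mmp12 (-1.45) and Mmp13 (-1.16), each more positive in WT on the log2(FPKM + 1) scale. As ratios of mean FPKM, Bmal1KO to WT, Mmp12 was at 0.0126 at 37 °C and 0.0133 at 32 °C and Mmp13 at 0.0245 and 0.0234, so that both changed by a like factor in the genotypes, and with a pseudocount of 0.1 FPKM the Mmp13 value was -0.44 and lost its call. The Mmp12 value kept its call with that pseudocount. The 27 and 32 °C values share the 37 °C libraries. At 32 °C the summed FPKM of a library includes the share taken by Gm26377 given in the report, whose part in the Mmp12 and Mmp13 values was not tested.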

How the results depend on the processing

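Over 193 results of single members and 1474 alternative values, 1387 kept their direction and side of the threshold, 80 passed it in addition, 7 lost it and 0 reversed. With a replicate block by CT label in place of the time terms, 1 value lost its call: Mmp8 in AM and PM at -0.999. Numbers pair no samples here, and no count of members moved by over 1.5 times under the replicate block.

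A pseudocount of 0.1 FPKM in place of 1 moved the most counts. Genotype calls went to 12 lower in AM and PM, and to 5 higher and 12 lower over the temperatures. By single course, the lower calls went from 6 to 11 in AM, 7 to 13 in PM, 8 to 14 at 37 °C, 8 to 15 at 32 °C and 7 to 9 at 27 °C, and the higher calls to 7, 5, 5, 5 and 5. PM against AM went to 2 higher and 4 lower in WT and 1 higher in Bmal1KO, 32 against 37 °C to 4 higher in WT and to 2 higher and 3 lower in Bmal1KO, 27 against 37 °C in Bmal1KO to 7 lower, and the 32 °C difference between genotypes to 2 positive. Trends went to 1 in Bmal1KO AM, 2 in WT AM, 3 in WT PM, 1 in Bmal1KO at 27 °C, and 2, 4 and 9 in WT at 27, 32 and 37 °C, and rhythms to 2 in Bmal1KO PM, 1 in WT at 27 °C and 2 in WT at 37 °C. Over all genes, genotype calls went from 2041 to 3478 in AM and PM and from 1764 to 3259 over the temperatures, 27 against 37 °C from 1869 to 3530 in WT and from 1601 to 3132 in Bmal1KO, 32 against 37 °C from 447 to 1153 and from 366 to 997, PM against AM from 324 to 915 and from 153 to 489, and the differences between genotypes from 639 to 1554 at 27 °C and from 212 to 600 at 32 °C.

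Median-of-ratios scaling gave 2 lower in PM against AM in Bmal1KO, 1 higher and 7 lower at 27 °C and 1 lower at 32 °C in Bmal1KO, 1 positive difference between genotypes at 32 °C and 4 rhythms in Bmal1KO at 37 °C. A filter at a mean of 1 FPKM, which tests fewer genes, gave 0 trends in WT PM and at 27 °C in WT, 1 rhythm in WT at 27 °C, 1 higher at 27 °C in WT and 1 negative difference between genotypes at 27 °C. With the CT14 libraries kept there were 3 trends in WT at 27 °C and 1 rhythm each at 37 °C in WT and Bmal1KO, and the Adamts15 difference between genotypes was 0.88. Without WT AM CT36 there was 1 rhythm in WT AM. Causes were not tested where the construction does not show them. Members under about 0.5 FPKM rest on few reads.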

Other observations

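Members below 0.5 FPKM were not tested, and the 4 given here were chosen after their values were seen. Mmp7 (matrilysin) averaged 0.383 FPKM in WT at 32 °C and 0.00823 FPKM in Bmal1KO at 32 °C, and 0.393 and 0.0171 FPKM at 27 °C. Mmp1a averaged 0.188 FPKM in WT at 27 °C (0.0265 to 0.522) and 0.00649 FPKM in Bmal1KO at 27 °C, and was listed at 0 in every Bmal1KO library of AM and PM. Adamts3, a procollagen N-proteinase, averaged 0.230 FPKM in WT AM and 0.0137 FPKM in Bmal1KO AM. Timp4 averaged 0.457 FPKM in WT at 32 °C and 0.108 FPKM in Bmal1KO at 32 °C, with overlapping ranges (0.0953 to 0.779 and 0.0432 to 0.276 FPKM). These levels rest on few reads.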
